A study of Rattus norvegicus with 6 samples.

Results

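The genes described here encode the respiratory complexes II to V, the part of the mitochondrial chain that runs from succinate dehydrogenase to ATP synthase, in the gastrocnemius muscle of obese rats. Members were chosen by gene symbol among array rows annotated with a single gene: the succinate dehydrogenase subunits Sdha to Sdhd, symbols starting with Uqcr, cytochrome c (Cycs), symbols starting with Cox4 to Cox8, and symbols starting with Atp5. This gave 44 members of 14506 genes measured, with 4 in complex II, 8 in complex III with cytochrome c, 16 in complex IV and 16 in complex V. One of the 16 in complex IV, Cox6c-ps1, is a transcribed pseudogene. Among others, Cyc1, Uqcr10, Cox6b1, Cox7a1, the complex V genes Atp5mf and Atp5mpl (Atp5mj) and the subunits encoded by mitochondrial DNA were not analysed here.

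The animals were male Sprague-Dawley rats with diet-induced obesity, 12 weeks old at the start and 20 weeks old at the end of 8 weeks on a high-fat, high-sucrose diet eaten at will. All diets supplied 4.6 kcal/g, with 10% of energy as protein. In the leucine diet, casein supplied 7.1% of energy and free leucine, a branched-chain amino acid, supplied 2.9%. The dairy diet took its protein from skim milk powder (complete dairy), and the control diet from casein, the main milk protein, alone. Affymetrix Rat Gene 1.0 ST arrays measured muscle RNA, with 2 arrays for leucine, 2 for dairy and 2 for casein, although the design text gives 4 rats per diet. Nothing in the labels says that the arrays of a diet hold RNA of separate rats, so each p-value below measures only the spread between these arrays, which may be technical. The labels name gastrocnemius throughout, whereas the protocol texts name liver for tissue storage and RNA extraction. All values are log2 signals as deposited, so a difference of 1 is a 2-fold difference in signal, and differences are given ± the standard error of the model. Levels of different probes are not compared with each other, except that genes are placed above or below the median gene. Sums over gene lists serve to compare arrays.

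Complex II oxidises succinate and hands its electrons to coenzyme Q. Complex III passes electrons from coenzyme Q to cytochrome c, complex IV (cytochrome c oxidase) passes them on to oxygen, and both pump protons across the inner membrane. Complex V, ATP synthase, lets the protons flow back and uses them to make ATP. Muscle fibres that work by oxidative metabolism, slow fibres among them, are rich in these complexes. Nuclear respiratory factors, GABP of the ETS family and oestrogen-related receptors are known to drive many of their genes.

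The promoter windows of 3 members are shown because these were the members with the smallest unadjusted p for leucine against casein whose window held one of 3 searched motifs, with the matches in capitals. Each window runs from 250 bases before to 50 bases after the RefSeq start, 5′ to 3′ along the gene, on the GRCr8 build. Sdhd lies on the minus strand at chr8:59850592-59850891, Uqcrh on the minus strand at chr5:134790833-134791132 and Atp5pf on the minus strand at chr11:37375052-37375351.
Sdhd: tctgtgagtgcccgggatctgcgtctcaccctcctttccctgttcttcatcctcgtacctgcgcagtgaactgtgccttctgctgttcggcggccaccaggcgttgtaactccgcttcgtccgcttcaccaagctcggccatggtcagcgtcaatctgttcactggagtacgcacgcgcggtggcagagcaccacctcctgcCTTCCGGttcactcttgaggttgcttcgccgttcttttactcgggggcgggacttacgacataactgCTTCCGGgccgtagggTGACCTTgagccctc
Uqcrh: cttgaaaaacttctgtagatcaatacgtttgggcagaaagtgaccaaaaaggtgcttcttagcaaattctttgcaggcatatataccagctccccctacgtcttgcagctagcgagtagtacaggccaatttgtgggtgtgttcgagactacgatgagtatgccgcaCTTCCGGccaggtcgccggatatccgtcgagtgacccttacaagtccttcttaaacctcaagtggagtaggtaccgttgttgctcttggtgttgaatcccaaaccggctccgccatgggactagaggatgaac
Atp5pf: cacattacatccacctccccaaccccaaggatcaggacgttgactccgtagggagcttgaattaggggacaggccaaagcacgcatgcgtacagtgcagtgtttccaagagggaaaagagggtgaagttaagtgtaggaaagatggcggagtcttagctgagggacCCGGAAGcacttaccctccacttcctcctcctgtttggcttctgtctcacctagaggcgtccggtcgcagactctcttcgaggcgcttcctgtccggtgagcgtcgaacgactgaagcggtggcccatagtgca
Both strands were searched for GCGC followed by any 2 bases and GCGC (nuclear respiratory factor 1), CCGGAAG (ETS) and AAGGTCA (oestrogen-related receptor), and no 2 of the matches shown overlap. Sdhd carried ETS matches that began 48 bases before and 20 bases after the start, and an oestrogen-related receptor match 36 bases after it. Uqcrh carried an ETS match 83 bases before the start, and Atp5pf one 84 bases before it. RefSeq's table held promoters of 37 of the 44 members. Of these, 14 (37.8%) held the ETS motif, against 12.9% of the 12540 promoters of genes on the arrays and 8.75% of all 33469 in the table. The nuclear respiratory factor 1 motif was in 7 (18.9%), against 9.48% and 5.58%, and the oestrogen-related receptor motif in 7 (18.9%), against 3.39% and 4.61%. At least one of the motifs was in 21 member promoters (56.8%), against 23.4% of promoters of genes on the arrays. By complex this was 3 of 4 in complex II, 4 of 6 in complex III, 4 of 12 in complex IV and 10 of 15 in complex V. The window of Cox7c, the member with the smallest p, held none of these letters.

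The arrays had median signals between 3.46 and 3.56, and 40 of the 44 members lay above the median gene. Casein array 2 stood apart from the rest, with a mean correlation with the other arrays of 0.974, against 0.985 to 0.988 for the other 5. Fast-fibre genes, which mark most gastrocnemius fibres, were high on every array: the 14 of 15 listed that were measured had summed log2 levels of 168.6 to 169.3 on leucine arrays, 170.5 to 174.1 on dairy arrays and 166.3 to 172.6 on casein arrays. The 13 slow-fibre genes, all measured, summed to 120.9 and 128.5 on leucine arrays and to 118.7 and 120.8 on dairy arrays, against 122.9 on casein array 1 and 77.2 on casein array 2. Myh7, the slow myosin heavy chain, was 6.07 on casein array 2 and at least 10.67 on every other array. The 20 hepatocyte genes, all measured, summed to 65.2 and 102.4 on leucine arrays and to 80.2 and 66.5 on dairy arrays, against 90.3 and 126.5 on casein arrays. Their albumin gene, Alb, was 4.81 and 9.80 on leucine arrays, 8.11 and 5.54 on dairy arrays, and 9.48 and 11.69 on casein arrays. The 12 macrophage genes summed to 53.4 to 54.9 on leucine arrays, 61.1 to 62.5 on dairy arrays and 55.2 to 67.0 on casein arrays, the highest value being casein array 2. No value on these arrays is 0, since the lowest deposited signal was 1.14. In bulk RNA, fewer cells of a type and less RNA per cell cannot be told apart. The part of these differences in the results below was not tested, and the medians of gene lists and the differences of single members from casein are therefore given with and without casein array 2.

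Respiratory genes were mostly higher with leucine than with casein, but the difference was smaller without casein array 2. Of the 44 members, 38 were higher and 6 lower with leucine, against 48.5% of all genes that were higher. The median difference was 0.24, with a range from −0.40 to 0.80. Without casein array 2, 27 were higher and 17 lower, with a median of 0.04 (47.4% of all genes were higher), and without casein array 1 the median was 0.47. No member passed the adjusted threshold of 0.05 by limma with Benjamini-Hochberg adjustment, the lowest adjusted p being 0.353, and 0.0% of all genes passed it. At an unadjusted p under 0.05, 11 members were higher and 0 lower, against 4.76% of all genes higher and 4.85% lower. Without casein array 2 these counts were 5 higher and 3 lower (Uqcr11, Atp5mg and Atp5pd), against 6.31% and 6.96% of all genes. The 2 leucine arrays lay wholly above the 2 casein arrays for 19 members (15.9% of all genes) and wholly below for 1, Cox6a2 (15.6% of all genes).

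**Figure D1:**
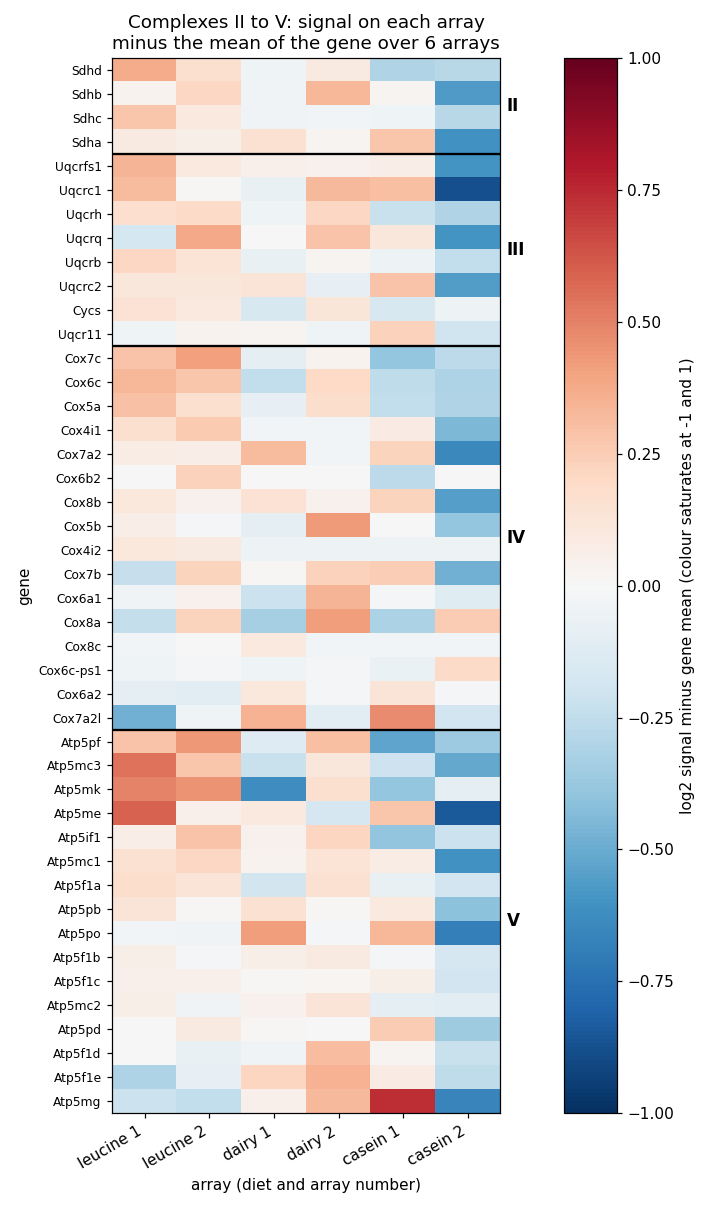
Log2 signal of each of the 44 members on the 6 arrays, shown as the difference from that gene's mean over the arrays, with members in rows by complex and arrays in columns by diet. The column of casein array 2 is the lowest of the 6 for 29 members, while 9 members, among them Sdhd, Uqcrh, Cox7c and Atp5pf, are low on both casein arrays.

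Members differed in how the casein arrays stood to each other. Casein array 2 was the single lowest of the 6 arrays for 29 of 44 members, against 22.1% of all genes, and this held for 3 of 4 in complex II, 7 of 8 in complex III, 7 of 16 in complex IV and 12 of 16 in complex V. It lay below casein array 1 for 33 members (75.0%, against 43.6% of all genes), by a median of 0.25. The 2 casein arrays differed by over 0.5 for 18 members (40.9%, against 15.5% of all genes). The 2 leucine arrays did so for 2 members (4.55%, against 5.67% of all genes) and the 2 dairy arrays for 4 (9.09%, against 8.26%). Casein array 1 was the single highest array for 10 members (14.9% of all genes), and in 8 of them casein array 2 was the lowest. Both casein arrays lay below all 4 others for 9 members, namely Sdhc, Sdhd, Uqcrh, Cox5a, Cox6c, Cox7c, Atp5if1, Atp5mc2 and Atp5pf (6.45% of all genes). Among the 16 members whose casein arrays differed by less than 0.2, 15 were higher with leucine and 14 with dairy than with casein. Their medians were 0.30 and 0.18. These members were picked on casein values that also enter both differences, and they include Cox4i2 and Cox8c, which lie below the median gene. No share was counted over all genes with so small a gap. Over all genes of any gap, 48.5% were higher with leucine and 50.6% with dairy.

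All 4 subunits of succinate dehydrogenase were higher with leucine than with casein, with a median difference of 0.37. Without casein array 2, 3 were higher and 1 lower, with a median of 0.16. The small membrane anchors that hold the coenzyme Q site, Sdhc and Sdhd, lay higher with leucine than with casein on every array. Sdhd was 9.51 and 9.30 on leucine arrays and 9.10 and 9.23 on dairy arrays, against 8.84 and 8.86 on casein arrays. Its 3 diets did not overlap, with leucine highest and casein lowest. The differences from casein were 0.56 ± 0.10 for leucine (unadjusted p = 0.00403, limma adjusted p = 0.353, n = 2 each) and 0.31 ± 0.10 for dairy (limma adjusted p = 0.833), or 0.57 and 0.33 without casein array 2. Sdhc was 9.33 and 9.15 on leucine arrays and 9.02 and 9.03 on dairy arrays, against 9.01 and 8.78 on casein arrays. Here the dairy arrays lay just above casein array 1, and the leucine difference was 0.35 ± 0.11, while the dairy difference was 0.13 ± 0.11, or 0.23 and 0.0093 without casein array 2.

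The catalytic part of complex II, the flavoprotein Sdha and the iron-sulphur protein Sdhb, differed mainly between the casein arrays. Sdha, which oxidises succinate, was 10.16 and 10.13 on leucine arrays and 10.22 and 10.10 on dairy arrays, against 10.34 and 9.46 on casein arrays. Casein array 1 was the highest and casein array 2 the lowest of the 6, and the leucine difference of 0.24 ± 0.31 became −0.20 without casein array 2. Sdhb was 9.68 and 9.86 on leucine arrays and 9.61 and 9.98 on dairy arrays, against 9.68 and 9.08 on casein arrays. Its leucine difference was 0.39 ± 0.25, or 0.09 without casein array 2, and its dairy difference was 0.42 ± 0.25, or 0.12.

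In complex III with cytochrome c, 7 of 8 members were higher with leucine, with a median of 0.33. Without casein array 2, 4 were higher and 4 lower, with a median of 0.07. Uqcrh, the hinge protein that helps cytochrome c1 bind cytochrome c, was 9.00 and 9.02 on leucine arrays and 8.79 and 9.04 on dairy arrays, against 8.61 and 8.53 on casein arrays. Both casein arrays lay below the other 4, and the differences from casein were 0.44 ± 0.10 for leucine (unadjusted p = 0.0112, limma adjusted p = 0.399) and 0.34 ± 0.10 for dairy (limma adjusted p = 0.833), or 0.40 and 0.30 without casein array 2. Uqcrb, a small subunit near the ubiquinone site, was 10.56 and 10.49 on leucine arrays and 10.29 and 10.39 on dairy arrays, against 10.31 and 10.11 on casein arrays. Leucine lay above both other diets, by 0.32 ± 0.10 over casein (unadjusted p = 0.0251, limma adjusted p = 0.444) and 0.22 without casein array 2. Cytochrome c itself, Cycs, was 11.17 and 11.13 on leucine arrays and 10.87 and 11.15 on dairy arrays, against 10.87 and 10.98 on casein arrays. It is the 1 member of this group in which casein array 2 was above casein array 1, and leucine was above casein by 0.22 ± 0.12 (0.28 without casein array 2).

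In the core proteins, the Rieske protein and the small subunit Uqcrq, casein array 2 lay far below casein array 1. Uqcrc1, a core protein, was 9.79 and 9.48 on leucine arrays and 9.40 and 9.79 on dairy arrays, against 9.77 and 8.59 on casein arrays. Its leucine difference was 0.45 ± 0.44, and −0.13 without casein array 2. Uqcrc2, the other core protein, was 10.39 and 10.39 on leucine arrays and 10.40 and 10.19 on dairy arrays, against 10.56 and 9.72 on casein arrays. As with Sdha, casein held both the highest and the lowest array, and 0.25 ± 0.30 became −0.17 without casein array 2. Uqcrfs1, the Rieske iron-sulphur protein that moves electrons towards cytochrome c1, was 8.32 and 8.07 on leucine arrays and 8.02 and 8.01 on dairy arrays, against 8.04 and 7.38 on casein arrays. Leucine exceeded casein on both arrays, by 0.48 ± 0.25, or 0.15 without casein array 2. Uqcrq, a small subunit, was 7.90 and 8.45 on leucine arrays and 8.07 and 8.36 on dairy arrays, against 8.18 and 7.48 on casein arrays. Its arrays overlapped between diets, and 0.34 ± 0.32 became −0.01 without casein array 2. Uqcr11, another small subunit, ran between 9.64 and 10.07 over the 6 arrays and was the 1 member of complex III that was not higher with leucine.

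In complex IV, 13 of 16 members were higher with leucine, with a median of 0.19. Without casein array 2, 11 were higher and 5 lower, with a median of 0.03. Cox7c, a small structural subunit, had the smallest p of all 44 members. It was 10.18 and 10.30 on leucine arrays and 9.80 and 9.92 on dairy arrays, against 9.51 and 9.63 on casein arrays. The 3 diets did not overlap, and leucine exceeded casein 1.59-fold, by 0.67 ± 0.09 (unadjusted p = 0.00129, limma adjusted p = 0.353), and by 0.73 without casein array 2. Dairy exceeded casein by 0.29 ± 0.09 (limma adjusted p = 0.833), and by 0.36 without casein array 2. Cox5a, a matrix-side subunit, was 10.27 and 10.14 on leucine arrays and 9.89 and 10.16 on dairy arrays, against 9.73 and 9.67 on casein arrays. Both casein arrays lay below the other 4, and leucine exceeded casein by 0.50 ± 0.12 (unadjusted p = 0.0102, limma adjusted p = 0.392) and dairy by 0.32 ± 0.12, or 0.47 and 0.29 without casein array 2. Cox6c was 10.39 and 10.33 on leucine arrays and 9.81 and 10.26 on dairy arrays, against 9.80 and 9.74 on casein arrays. Leucine exceeded casein by 0.59 ± 0.16 (unadjusted p = 0.0205, limma adjusted p = 0.429) and by 0.56 without casein array 2, while the lower dairy array lay only just above casein.

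Several subunits of complex IV exist as tissue isoforms, with Cox6a2 and Cox8b the forms of heart and skeletal muscle and Cox6a1, Cox7a2 and Cox8a more widely expressed. Cox6a2 was 10.34 and 10.33 on leucine arrays and 10.55 and 10.43 on dairy arrays, against 10.57 and 10.42 on casein arrays. It is the 1 member whose leucine arrays lay below both casein arrays, by −0.16 ± 0.08 (−0.23 without casein array 2). Cox6a1 was 7.29 and 7.37 on leucine arrays and 7.11 and 7.66 on dairy arrays, against 7.31 and 7.20 on casein arrays. Its diets overlapped, with a leucine difference of 0.07 ± 0.20, or 0.0191 without casein array 2 and −0.0083 after quantile normalization. Cox8b was 8.19 and 8.13 on leucine arrays and 8.23 and 8.13 on dairy arrays, against 8.30 and 7.53 on casein arrays. Casein again held the highest and the lowest array, and 0.24 ± 0.27 became −0.15 without casein array 2. Cox8a was 7.14 and 7.61 on leucine arrays and 7.05 and 7.80 on dairy arrays, against 7.07 and 7.63 on casein arrays. In each diet array 2 was higher than array 1 by more than any difference between diets, and the leucine difference was 0.03 ± 0.36, or 0.31 without casein array 2 and −0.0638 after quantile normalization.

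Cox4i1 and Cox4i2 are the common and the hypoxia-inducible forms of the subunit that binds ATP. Cox4i1 was 9.78 and 9.88 on leucine arrays and 9.59 and 9.59 on dairy arrays, against 9.71 and 9.18 on casein arrays. Leucine lay above both other diets, by 0.39 ± 0.19 over casein (0.13 without casein array 2). Cox4i2 was 3.56 and 3.55 on leucine arrays, against an identical 3.41 on all dairy and casein arrays. It lay below the median gene, as did Cox6b2, the testis form, which ran between 2.26 and 2.75, so these differences are between dim signals. Cox7a2 was 9.73 and 9.72 on leucine arrays and 9.97 and 9.62 on dairy arrays, against 9.87 and 9.01 on casein arrays, with a leucine difference of 0.28 ± 0.32 (−0.15 without casein array 2). Its relative Cox7a2l, which helps complexes III and IV join into supercomplexes, was 7.65 and 8.10 on leucine arrays and 8.49 and 8.02 on dairy arrays, against 8.61 and 7.95 on casein arrays. It had the most negative leucine difference of the 44 members, −0.40 ± 0.32 (−0.74 without casein array 2), but its diets overlapped. Cox5b was 8.51 and 8.43 on leucine arrays and 8.35 and 8.87 on dairy arrays, against 8.44 and 8.06 on casein arrays, again with overlap. The remaining Cox7b, Cox8c and Cox6c-ps1 had leucine differences between −0.09 and 0.11, or −0.25 and 0.03 without casein array 2.

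**Figure D2:**
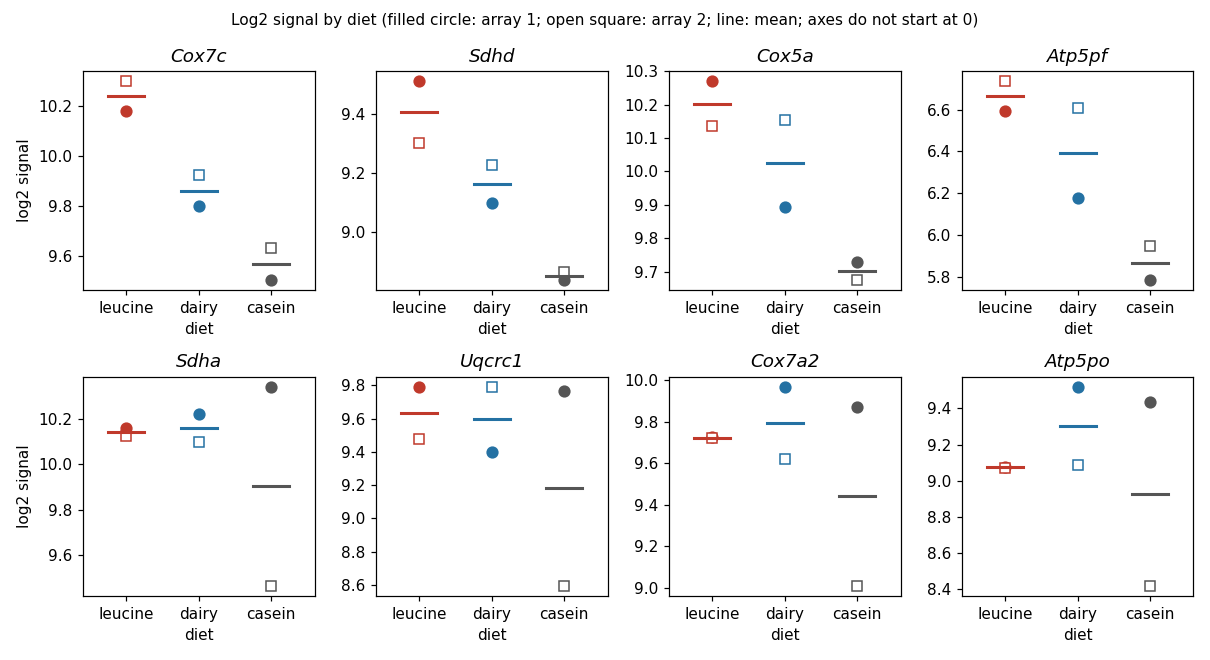
Log2 signal on each array for 8 members, 1 panel per gene, with leucine, dairy and casein from left to right, filled circles for array 1, open squares for array 2 and a line for the diet mean (axes do not start at 0). Cox7c and Sdhd show 3 separate levels and Cox5a and Atp5pf are low on both casein arrays, whereas in Sdha, Uqcrc1, Cox7a2 and Atp5po the widest gap lies between the 2 casein arrays.

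In complex V, 14 of 16 members were higher with leucine, with a median of 0.19. Without casein array 2, 9 were higher and 7 lower, with a median of 0.04. Of the catalytic head of the enzyme, F1, the alpha, beta and epsilon subunits are described first. The gamma (Atp5f1c) and delta (Atp5f1d) subunits were also measured and are among the remaining members given below. Atp5f1a (alpha) was 12.01 and 11.96 on leucine arrays and 11.65 and 11.99 on dairy arrays, against 11.76 and 11.64 on casein arrays, a leucine difference of 0.28 ± 0.13 (0.22 without casein array 2). Atp5f1b (beta) was 11.73 and 11.65 on leucine arrays and 11.72 and 11.75 on dairy arrays, against 11.65 and 11.50 on casein arrays, a leucine difference of 0.11 ± 0.08 (0.04 without casein array 2). Leucine lay above casein on all arrays for the alpha subunit, while the beta subunit overlapped by the narrowest margin. Atp5f1e (epsilon) was 9.27 and 9.50 on leucine arrays and 9.79 and 9.93 on dairy arrays, against 9.67 and 9.33 on casein arrays. Here leucine was not above casein, at −0.11 ± 0.16 (−0.28 without casein array 2), and dairy was the highest diet.

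The membrane ring of ATP synthase is built from subunit c, which 3 genes encode with the same mature protein behind different import peptides. Atp5mc3 had the largest leucine difference of these genes. It was 10.00 and 9.74 on leucine arrays and 9.23 and 9.57 on dairy arrays, against 9.25 and 8.95 on casein arrays, 0.77 ± 0.19 over casein (unadjusted p = 0.0123, limma adjusted p = 0.404) and 0.62 without casein array 2. Atp5mc1 was 8.54 and 8.60 on leucine arrays and 8.42 and 8.52 on dairy arrays, against 8.46 and 7.78 on casein arrays, with a leucine difference of 0.44 ± 0.24 (0.10 without casein array 2). Atp5mc2 was 9.13 and 9.03 on leucine arrays and 9.11 and 9.20 on dairy arrays, against 8.98 and 8.96 on casein arrays, with a leucine difference of 0.11 ± 0.07 (0.10 without casein array 2). All 3 genes lay above casein on both leucine arrays, but Atp5mc1 did so by a wide margin over casein array 2 alone.

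The largest leucine difference of all 44 members was that of Atp5pf, coupling factor 6 in the stalk that joins F1 to the membrane. It was 6.59 and 6.74 on leucine arrays and 6.18 and 6.61 on dairy arrays, against 5.78 and 5.95 on casein arrays. Leucine exceeded casein 1.74-fold, by 0.80 ± 0.17 (unadjusted p = 0.00791, limma adjusted p = 0.375), and dairy exceeded it by 0.53 ± 0.17 (limma adjusted p = 0.833), or 0.88 and 0.61 without casein array 2. Atp5if1, the inhibitor that stops ATP synthase from running backwards, was 8.39 and 8.61 on leucine arrays and 8.37 and 8.54 on dairy arrays, against 7.93 and 8.11 on casein arrays. Leucine and dairy overlapped and both lay above casein, by 0.48 ± 0.12 (unadjusted p = 0.0154, limma adjusted p = 0.414) and 0.44 ± 0.12 (limma adjusted p = 0.833), or 0.57 and 0.53 without casein array 2. Atp5mk, a small subunit linked to dimers of the enzyme, was 8.80 and 8.75 on leucine arrays and 7.68 and 8.46 on dairy arrays, against 7.92 and 8.20 on casein arrays. Leucine lay above both other diets, by 0.72 ± 0.29 over casein (0.86 without casein array 2), and dairy spread across casein. Atp5mg, another membrane subunit, was 6.39 and 6.36 on leucine arrays and 6.65 and 6.93 on dairy arrays, against 7.34 and 5.94 on casein arrays. Its casein arrays were 1.40 apart, the widest gap of the 44 members, and −0.27 ± 0.49 became −0.97 without casein array 2. In the remaining 6, Atp5f1c, Atp5f1d, Atp5me, Atp5pb, Atp5pd and Atp5po, casein array 2 was the lowest of all arrays and the leucine differences lay between 0.06 and 0.60, or −0.36 and 0.04 without casein array 2.

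**Figure D3:**
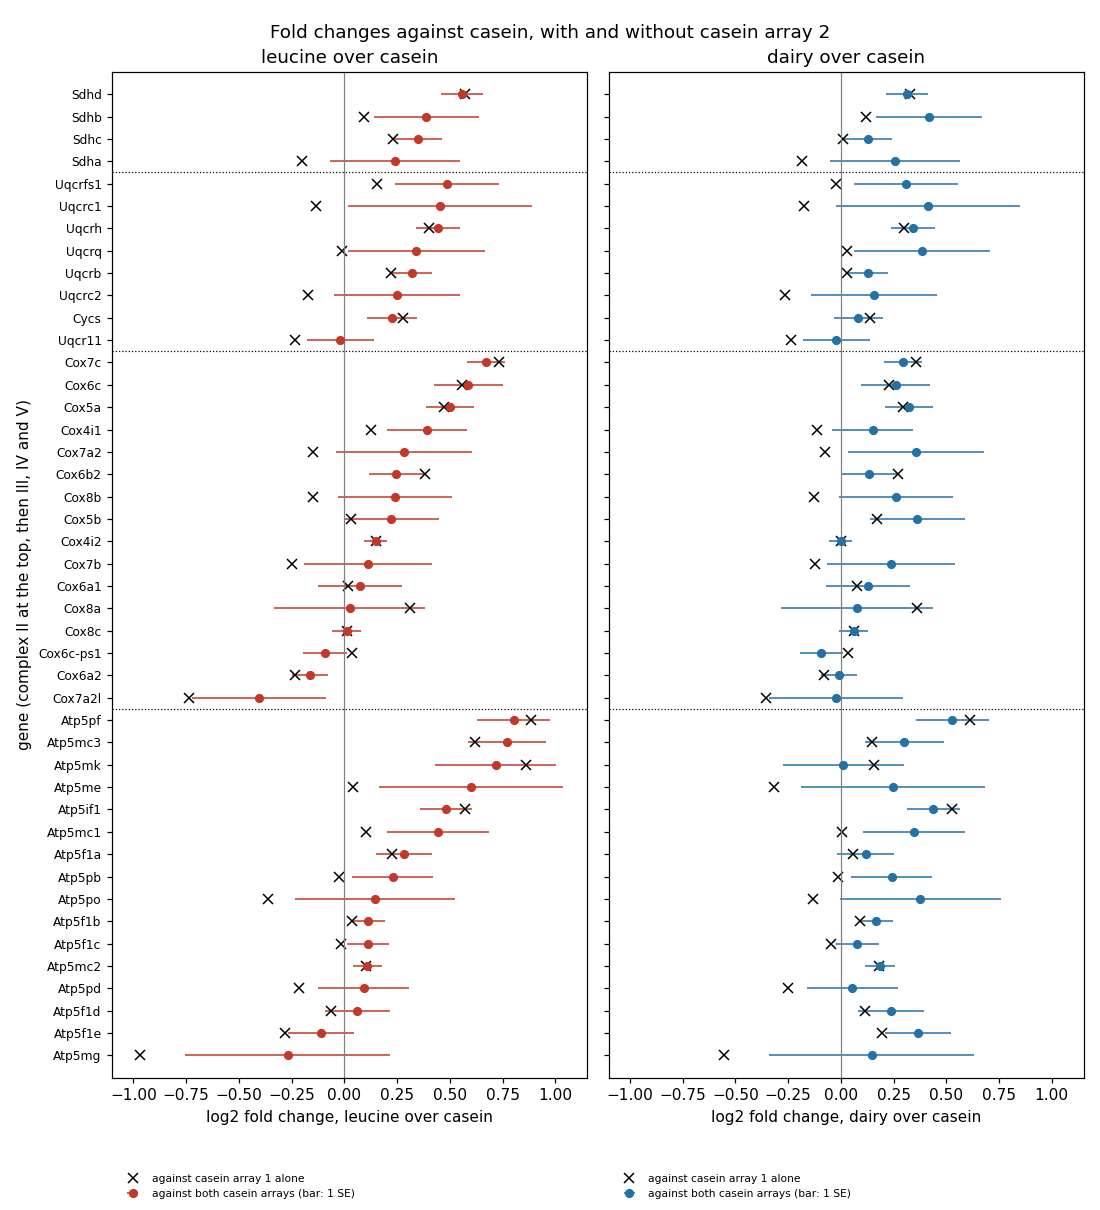
Log2 differences from casein for each of the 44 members, leucine and dairy, with circles and bars for the value and the standard error of the model and crosses for the value without casein array 2. Most values with all arrays lie above 0, and the medians of 0.24 for leucine and 0.24 for dairy become 0.04 and 0.03 without casein array 2.

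Respiratory genes were also mostly higher with dairy than with casein, by a similar amount and again less without casein array 2. Of the 44 members, 39 were higher and 4 lower, Cox4i2 being identical, against 50.6% of all genes that were higher, and the median difference was 0.24. Without casein array 2, 26 were higher and 17 lower, with a median of 0.03 (47.7% of all genes were higher). No member passed the adjusted threshold by limma (0.0% of all genes did), the lowest adjusted p being 0.833. At an unadjusted p under 0.05, 6 members were higher, against 2.49% of all genes, and 0 lower, against 2.31%. These were Sdhd, Uqcrh, Cox5a, Cox7c, Atp5if1 and Atp5pf. Without casein array 2 the counts were 2 higher, Cox7c and Atp5if1, and 3 lower, against 5.14% and 5.09% of all genes. After quantile normalization 33 members were higher with dairy and 11 lower, with a median of 0.13, and 0 members had an unadjusted p under 0.05, against 3.31% of all genes. The dairy arrays lay wholly above casein for 11 members (11.5% of all genes) and wholly below for 0 (11.7%). By complex the medians were 0.28 for complex II, 0.23 for complex III, 0.14 for complex IV and 0.24 for complex V, and without casein array 2 they were 0.07, 0.0022, 0.05 and 0.07. In complex V all 16 members were higher with dairy, but without casein array 2 this was 10 higher and 6 lower. After quantile normalization 12 were higher and 4 lower. Because leucine and dairy were set against the same casein arrays, the likeness of both results is not independent.

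Atp5f1e had a dairy difference of 0.37 ± 0.16 (0.20 without casein array 2), with both dairy arrays above both casein arrays, although leucine was not above casein in this gene. With dairy, Uqcrq exceeded casein by 0.38 ± 0.32 (0.03 without casein array 2) and Cox5b by 0.36 ± 0.22 (0.17), each with overlapping arrays. For Uqcrb the dairy difference was 0.13 ± 0.10 (0.03 without casein array 2), and dairy lay between leucine and casein array 2.

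In the median, leucine and dairy differed little over the complexes as a whole. Leucine was higher for 25 members and lower for 19, with a median difference of 0.04 (48.4% of all genes were higher). The medians by complex were 0.10 for complex II, 0.10 for complex III, −0.04 for complex IV and 0.04 for complex V. In the same order, 2 of 4, 7 of 8, 7 of 16 and 9 of 16 members were higher with leucine. No member passed the adjusted threshold by limma (0.0% of all genes did), the lowest adjusted p being 0.619. At an unadjusted p under 0.05, Cox7c and Cox4i2 were higher with leucine, against 2.25% of all genes, and Atp5f1e was lower, against 3.45%. The arrays of leucine lay wholly above those of dairy for 12 members (27.3%, against 13.4% of all genes). They lay wholly below for 4, namely Cox6a2, Atp5f1e, Atp5mg and Atp5po (14.9% of all genes). This comparison uses no casein array for its means.

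Cox7c was higher with leucine than with dairy by 0.38 ± 0.09 (unadjusted p = 0.0120, limma adjusted p = 0.619, n = 2 each). Atp5f1e was lower by −0.48 ± 0.16 (unadjusted p = 0.0337, limma adjusted p = 0.815). Atp5mk had the widest difference, 0.71 ± 0.29, with the 2 dairy arrays 0.78 apart. Atp5mc3 was higher by 0.47 ± 0.19, Cox6c by 0.33 ± 0.16, Sdhd by 0.24 ± 0.10 and Sdhc by 0.22 ± 0.11. Atp5mg was lower by −0.41 ± 0.49 and Cox7a2l by −0.38 ± 0.32, neither with an unadjusted p under 0.05.

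**Figure D4:**
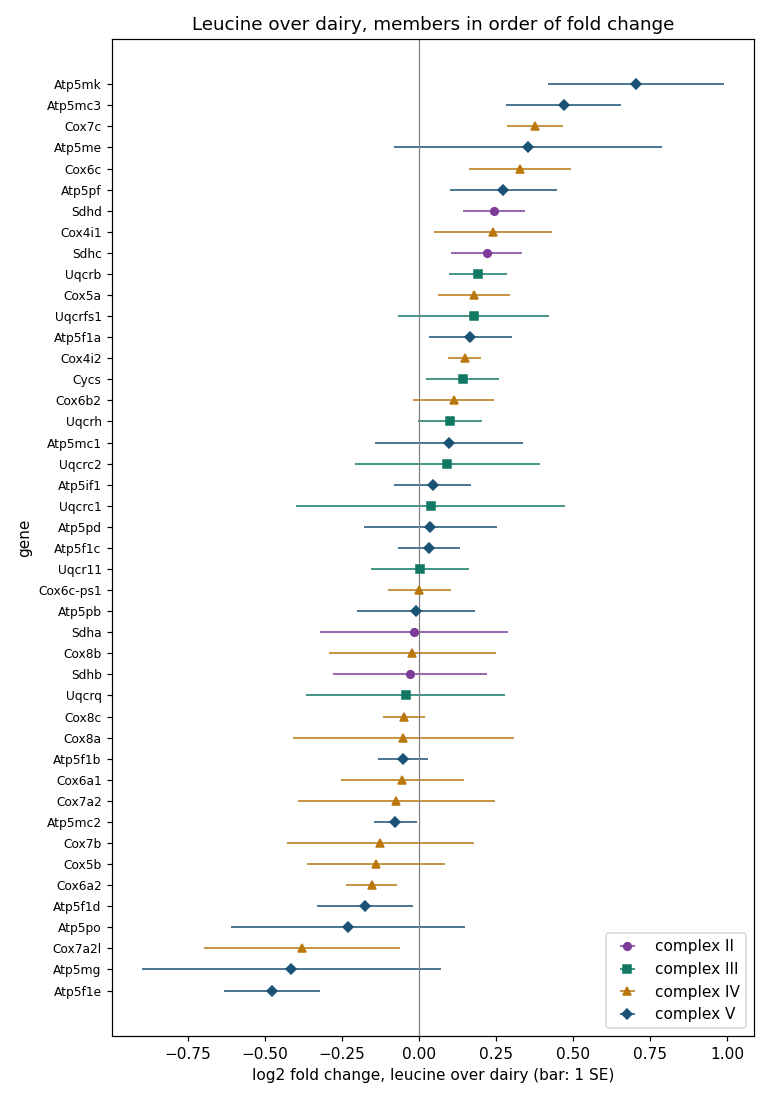
Log2 difference of leucine from dairy for each of the 44 members in order of size, with a symbol for each complex and bars for the standard error of the model. The points scatter on both sides of 0, from Atp5mk at 0.71 to Atp5f1e at −0.48, with 25 above and 19 below.

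Of the 44 members, 8 had several rows, of which the one with the highest mean was used. A second row of Atp5mc3 gave a leucine difference of 1.28 over casein, against 0.77 for the row used, and a second row of Atp5mk gave 0.75, against 0.72. The rows used for Atp5pd and Uqcrb are annotated to no RefSeq mRNA. The row of Atp5pd that has one was 9.35 and 9.50 on leucine arrays, against 9.45 and 9.00 on casein arrays. Its leucine arrays lay on either side of casein array 1. In the row used, 10.07 and 10.15 with leucine were both below casein array 1 at 10.32. RefSeq lists named pseudogenes or gene copies for 24 of the protein-coding members, up to 11 for Atp5mg. Among the 24 are Cox7c and Atp5pf with 4 each, Cox6c with 3, Atp5if1 with 2 and Sdhd with 1. Uqcrh, Cox5a and Atp5mc3 have none listed by name. Probes of the 24 members may also bind transcripts of the copies, so the values of these 24 are uncertain in that respect.

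Among genes that build, supply or regulate the complexes, some lists kept a median above 0.1 for leucine over casein without casein array 2. These were the assembly factors of complex IV, the carriers, the regulators and a list of further subunits. That list held Ndufa4 with the members Atp5if1 and Atp5mk, so only Ndufa4 is not counted among the members already. The median of the list, 0.57, is the value of Atp5if1 itself. The other lists of such genes did not keep a median above 0.1. None of those listed passed the adjusted threshold by limma. Ndufa4, a complex IV subunit despite its name, was 11.52 and 11.46 on leucine arrays and 11.35 and 11.30 on dairy arrays, against 11.31 and 11.07 on casein arrays, 0.30 ± 0.10 over casein for leucine (0.18 without casein array 2). Of 28 assembly factors of complex IV, 17 were measured, and 16 were higher with leucine than with casein and 13 with dairy. The medians were 0.18 for leucine (0.15 without casein array 2) and 0.11 for dairy (0.05). Without casein array 2, 12 of the 17 were higher with leucine and 10 with dairy. Taco1, which activates translation of the Cox1 message, was 6.64 and 6.84 on leucine arrays and 6.33 and 6.37 on dairy arrays, against 6.51 and 6.24 on casein arrays. Slirp, which stabilises mitochondrial messages, exceeded casein by 0.23 ± 0.08 with leucine (0.15 without casein array 2). Of 10 factors for complex III and cytochrome c, 7 were measured and 4 were higher with leucine (median 0.11, and −0.05 without casein array 2), with Bcs1l, which inserts the Rieske protein, at 0.68 ± 0.29 (0.37). Of 5 factors for complex V, 4 were measured and 1 was higher with leucine (median −0.04, and −0.17 without casein array 2), namely Tmem70 at 0.66 ± 0.26 (0.29). Of 4 factors for complex II, 3 were measured and 1 was higher with leucine (median −0.07, and −0.09 without casein array 2). Sdhaf2, which helps flavin attach to Sdha, was 7.94 and 8.08 on leucine arrays and 8.30 and 8.39 on dairy arrays, against 8.10 and 8.12 on casein arrays, so that dairy lay above both other diets.

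Of 37 complex I subunits, 33 were measured, and 29 were higher with leucine (median 0.17) and 32 with dairy (median 0.16). Without casein array 2, 16 were higher and 17 lower with leucine (median −0.05), and likewise with dairy (median −0.02). Of 14 enzymes of the tricarboxylic acid cycle other than succinate dehydrogenase, 11 were measured. All 11 were higher with leucine (median 0.24) and with dairy (median 0.15). Without casein array 2, 8 were higher with leucine (median 0.06) and 7 with dairy (median 0.05). Sucla2, a subunit of the succinyl-CoA ligase that forms succinate, was higher with leucine than casein by 0.43 ± 0.10 (0.34 without casein array 2). Of 7 carriers and porins, 6 were measured, and all 6 were higher with leucine (median 0.16, and 0.17 with 5 higher without casein array 2), with the phosphate carrier Slc25a3 at 0.43 ± 0.13 (0.26). Of 13 coenzyme Q synthesis genes, 12 were measured and 9 were higher with leucine and 9 with dairy (medians 0.18 and 0.10). Without casein array 2 these were 5 with leucine and 3 with dairy (medians −0.0048 and −0.12). Of 14 regulators of mitochondrial genes, 13 were measured and 9 were higher with leucine (median 0.30, and 0.23 without casein array 2) and 10 with dairy (median 0.06, and 0.03). Tfb2m, a factor for transcription of mitochondrial DNA, was 7.80 and 7.65 on leucine arrays and 7.13 and 7.25 on dairy arrays, against 6.95 and 7.09 on casein arrays. It exceeded casein by 0.71 ± 0.10 with leucine (limma adjusted p = 0.353), and by 0.78 without casein array 2. Ppara, a receptor for fatty acids, was 6.26 and 5.74 on leucine arrays and 5.26 and 5.53 on dairy arrays, against 5.20 and 4.74 on casein arrays, with leucine above both other diets.

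Markers of fibre and cell types are given as medians of the difference from casein. Matrix genes of fibroblasts were lower with leucine than with casein for all 12 (median −0.72, and −0.77 without casein array 2) and higher with dairy for all 12 (median 0.30, and 0.32 with 10 higher). Slow-fibre genes were higher for all 13 with leucine (median 2.17) and dairy (median 1.67), but without casein array 2 the medians were 0.04 with 7 higher for leucine and −0.24 with 3 higher for dairy. Fast-fibre genes had a median of −0.11 with leucine (−0.24 without casein array 2) and 0.09 with dairy (0.0059). Of the 14 measured, 2 were higher with leucine and 12 with dairy. Single fast-fibre genes ranged from −0.52 to 1.97 with leucine and from −0.03 to 1.64 with dairy, so not all of them stayed near the median. Hepatocyte genes were lower for all 20 with leucine (median −1.22) and dairy (median −1.66). Without casein array 2 they were lower for 15 of 20 with leucine (median −0.30) and for all 20 with dairy (median −0.76). Macrophage genes were lower for all 12 with leucine (median −0.57), but for 6 of 12 without casein array 2 (median −0.04), and their dairy median of 0.02 became 0.36 with 11 higher. Adipocyte genes, 8 of 9 measured, had medians of −0.69 with leucine (−0.39 without casein array 2) and −0.15 with dairy (0.08). Endothelial genes, 7 of 8 measured, had medians of 0.30 with leucine (0.0 without casein array 2) and 0.03 with dairy (0.22). The 5 of 6 measured markers of brown adipocytes and cardiomyocytes had medians of −0.05 with leucine (−0.01) and −0.04 with dairy (−0.11). None of these genes passed the adjusted threshold by limma. 

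**Figure D5:**
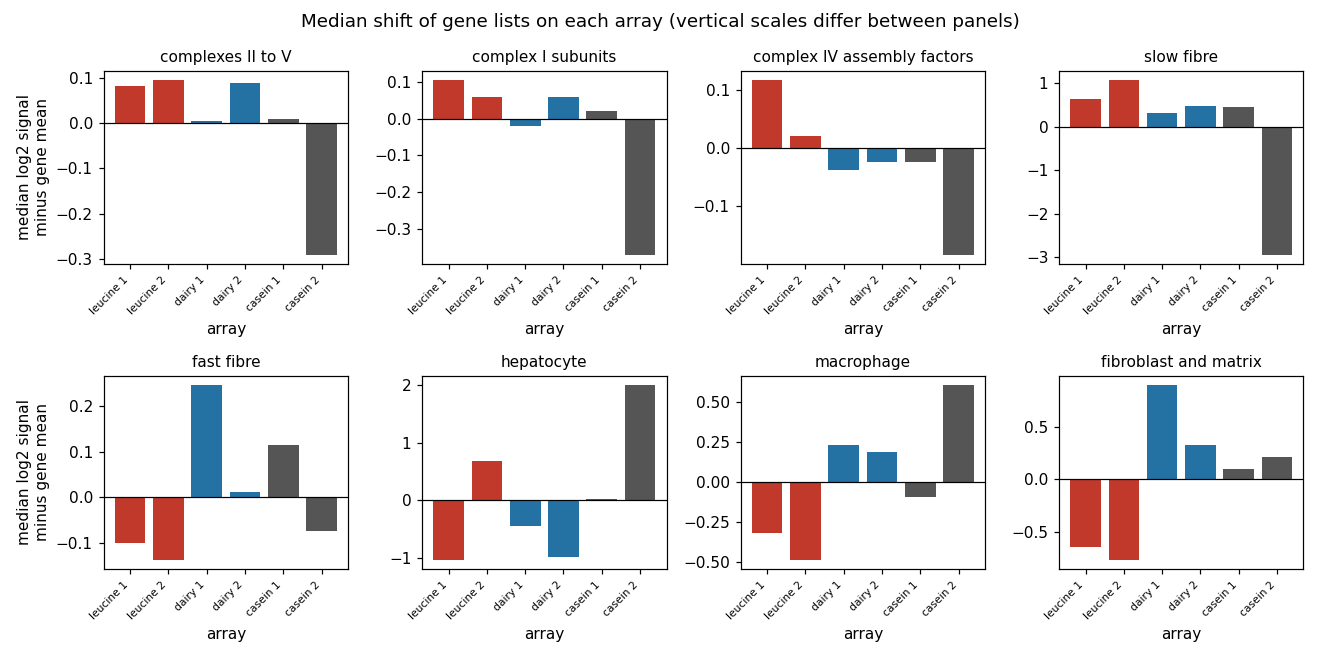
Median log2 difference from the gene mean on each array for the members, complex I, slow-fibre, hepatocyte and other gene lists, with arrays by diet. Casein array 2 is at −0.29 for the members, −0.37 for complex I subunits, −2.95 for slow-fibre genes and 2.0 for hepatocyte genes, while the other 5 arrays lie between 0.0035 and 0.10 for the members.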

How the data were processed

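Gastrocnemius RNA of 3 diets was measured on 6 Rat Gene 1.0 ST arrays, 2 per diet. The authors deposited a log2 signal for every transcript cluster on every array. The submitters' processing notes name Affymetrix Expression Console as the software, and its version, background correction and normalization are not given in the sources used here. Of 29214 clusters, 15310 carry a single gene in the platform annotation. Where several rows shared a current symbol, the row with the highest mean was used, which left 14506 genes and no filter on dim ones.

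A limma 3.58.1 model in R 4.3.3, with diet as its only term and 3 residual degrees of freedom, was fitted to all 6 arrays with moderated variances, and Benjamini-Hochberg adjustment ran over all 14506 genes at a threshold of 0.05. The procedure was tested on simulated data. The number of arrays limits the precision. The members and gene lists were chosen with earlier results of these data known. Values by array are given for both forms of isoform pairs, the subunits of complex II, core and catalytic subunits, subunit c, and in each comparison up to 3 further members per complex with the smallest p above the median gene. They are also given for members opposed to the majority by over 0.3, and up to 2 genes with the smallest p are named in a list. Values of other members named for their arrays were chosen after they were seen. Promoters come from RefSeq (GRCr8). Alternatives covered the normalization, dim genes, rows of a gene, the variance model, array weights, arrays in the fit and each array left out.

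The labels number the arrays 1 and 2 in each diet. The differences between them correlated across genes at 0.179 for leucine with casein, 0.0866 for dairy with casein and 0.0536 for leucine with dairy, not all above 0.1, and arrays of the same number were therefore not treated as pairs.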

Additional observations from a re-analysis of the deposited data

How the results depend on the processing

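With 2 arrays per diet, the medians over casein depended on which casein array was kept. Leaving out 1 array at a time, the median difference of leucine from casein ranged from 0.0381 to 0.47 for the 44 members, 0.16 to 0.61 for complex II, 0.0705 to 0.58 for complex III, 0.033 to 0.28 for complex IV and 0.0381 to 0.41 for complex V. For dairy from casein the ranges were 0.0319 to 0.36, 0.0651 to 0.50, 0.0022 to 0.48, 0.0468 to 0.26 and 0.0741 to 0.40. The lower ends are without casein array 2 and the upper ends without casein array 1. For leucine from dairy, complex IV ranged from −0.0374 without leucine array 2 to 0.11 without dairy array 2. With each array centred on its median, 39 members were higher with leucine and 43 with dairy than with casein, as were 9195 and 9420 of all 14506 genes. With quantile normalization the member medians were 0.21 for leucine and 0.13 for dairy over casein, and with the genes above the median level only complex IV was 0.25 for dairy. With all arrays, the medians of the members and of each complex over casein were above 0 in the 10 alternatives that keep both arrays of each diet compared. No gene passed the adjusted threshold, at 1394 genes with an unadjusted p under 0.05 for leucine against casein, 696 for dairy against casein and 827 for leucine against dairy, except 1 gene without casein array 1. This was Il6, an inflammatory cytokine and no member, at −4.56 for leucine (limma adjusted p = 0.0445) and −4.82 for dairy (limma adjusted p = 0.0379), with a range of 0 to 1 genes over the arrays left out.

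Leaving out 1 array turned the sign of 17 of 44 members for leucine over casein, 23 for dairy over casein and 20 for leucine over dairy. Sign turns were not counted over all genes. Among the members described by array, leucine differences from casein ranged from −0.28 to 0.0575 for Atp5f1e, −0.97 to 0.43 for Atp5mg, −0.15 to 0.71 for Cox7a2, −0.26 to 0.31 for Cox8a, −0.15 to 0.62 for Cox8b, −0.20 to 0.68 for Sdha, −0.13 to 1.04 for Uqcrc1, −0.17 to 0.67 for Uqcrc2 and −0.0124 to 0.69 for Uqcrq. For dairy over casein, Sdha ranged from −0.18 to 0.70, Uqcrc1 from −0.17 to 1.00, Uqcrc2 from −0.26 to 0.58, Cox4i1 from −0.11 to 0.42, Cox7a2 from −0.08 to 0.79 and Atp5mg from −0.55 to 0.84, among others. Leucine over dairy ranged, among others, from −0.0796 to 0.0466 for Sdha, −0.21 to 0.16 for Sdhb, −0.0246 to 0.22 for Uqcrh and −0.32 to 0.23 for Uqcrq. With quantile normalization the sign turned for 2 members in leucine over casein, Cox6a1 (−0.0083) and Cox8a (−0.0638), for 7 in dairy over casein, and for 6 in leucine over dairy, among them Sdha (0.011). The cause was not tested.

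With the replicate number as a block the medians of the members stayed at 0.24, 0.24 and 0.04 and 0 genes passed the threshold. Members at an unadjusted p under 0.05 were 11 for leucine against casein, as without the block, 4 for dairy against casein, in place of 6, and 2 higher and 0 lower for leucine against dairy, in place of 2 and 1. All genes at that level were 1619, 848 and 961 in leucine against casein, dairy against casein and leucine against dairy.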
